A study of Mus musculus with 12 samples.

Results

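The genes described here are the mouse zinc finger genes Zfp700 to Zfp999, read against maps of dimethylation of lysine 36 on histone H3 (H3K36me2) in somatosensory cortex. The rule uses the gene symbol and no measured value: it takes every protein-coding gene of the RefSeq annotation of GRCm38.p6 (mm10) whose symbol is Zfp followed by a whole number from 700 to 999, with a trailing letter allowed. The rule gave 136 of 21887 protein-coding genes. A gene was counted as carrying a peak when its body, from annotated start to end, shared at least 1 bp with an interval of a deposited peak list.

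Most genes with such symbols encode C2H2 zinc finger proteins, in which arrays of fingers, each folded around a zinc ion, read DNA sequence. Many also carry a KRAB domain, which recruits the corepressor TRIM28 and through it the H3K9 methyltransferase SETDB1, and many of these repress transposable elements. KRAB zinc finger genes multiply by local duplication, so they lie in clusters of near copies, and loss of such clusters, that on mouse chromosome 4 among them, has been reported to release endogenous retroviruses in embryonic stem cells. H3K36me2 is deposited by NSD1 and related enzymes over gene bodies and between genes, and is known for recruiting the DNA methyltransferase DNMT3A.

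The study profiled somatosensory cortex of mice aged 2.5 months by chromatin immunoprecipitation and sequencing (ChIP-seq) in 12 libraries, as 4 groups of 3. In the cKO animals (genotype Nsd1Nex-cKO) Nsd1 is deleted by Nex-Cre, which is active in excitatory neurons of the forebrain, so other cells of the dissected tissue keep the gene. In each group of 3 Ctrl libraries 2 had the genotype Nsd1fl/+ and 1 Nsd1fl/fl, so the controls carry floxed Nsd1 alleles too. Each genotype had 3 libraries with the H3K36me2 antibody and 3 of input chromatin. A single list of broad peaks stood for all libraries of a genotype, with 231 Ctrl peaks and 3491 cKO peaks, so no value per library was at hand, no error between replicates could be given and no test between genotypes was made. The cKO list was 15.1 times as long as the Ctrl list over the whole genome, and counts from the lists are therefore set side by side rather than compared. Read depth per library was unknown, and the cause of the difference in length was not tested. A change in the number of cells with the mark and a change in the mark per cell cannot be told apart in whole tissue. A peak list neither checks the deletion of Nsd1 nor holds values for markers of the tissue.

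Promoters of some of the genes with peaks are shown because they are similar to each other or to those of neighbours without a peak; they do not stand for all genes with peaks. Of the others, Zfp993, Zfp975 and Zfp827 had closest matches among the members of 62.3%, 76.3% and 59.3% identity over their whole windows, and Zfp978, Zfp991 and Zfp992 had no window. The windows below are the 250 bases before a RefSeq start site of GRCm38.p6, written 5′ to 3′ on the gene's own strand. The first 5 belong to the chromosome 4 cluster that held most peaks: Zfp980 (chr4:145670447-145670696, + strand), whose body held a Ctrl peak, and Zfp987 (chr4:146097062-146097311, + strand), Zfp982 (the second listed start, chr4:147492167-147492416, + strand), Zfp979 (chr4:147642509-147642758, - strand) and Zfp984 (chr4:147809789-147810038, - strand), whose bodies held cKO peaks. The last 2 come from chromosome 7: Zfp936 (chr7:43177340-43177589, + strand), whose body held the peak of highest fold, and Zfp977 (chr7:42592546-42592795, - strand), which has a similar promoter and whose body held none. Their bodies, of 77.9 and 13.1 kb, were not aligned. Capitals mark the longest runs of letters shared by the windows shown of the same cluster, 1 run of 15 bases on chromosome 4 and 2 runs of 30 on chromosome 7.
Zfp980: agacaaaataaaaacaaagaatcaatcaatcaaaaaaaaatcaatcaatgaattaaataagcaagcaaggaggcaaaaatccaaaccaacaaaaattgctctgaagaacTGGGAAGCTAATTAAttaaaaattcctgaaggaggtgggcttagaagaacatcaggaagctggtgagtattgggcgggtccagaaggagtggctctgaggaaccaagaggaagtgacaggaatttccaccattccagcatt
Zfp987: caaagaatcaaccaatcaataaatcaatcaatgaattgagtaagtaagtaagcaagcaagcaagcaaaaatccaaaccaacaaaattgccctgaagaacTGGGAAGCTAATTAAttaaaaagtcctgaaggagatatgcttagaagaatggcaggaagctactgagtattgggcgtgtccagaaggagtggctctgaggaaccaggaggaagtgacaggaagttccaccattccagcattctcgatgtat
Zfp982: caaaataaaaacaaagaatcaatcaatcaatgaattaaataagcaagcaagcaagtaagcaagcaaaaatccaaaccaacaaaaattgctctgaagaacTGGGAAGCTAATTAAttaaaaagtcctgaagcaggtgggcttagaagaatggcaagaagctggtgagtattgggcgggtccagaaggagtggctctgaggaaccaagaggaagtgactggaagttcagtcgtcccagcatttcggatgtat
Zfp979: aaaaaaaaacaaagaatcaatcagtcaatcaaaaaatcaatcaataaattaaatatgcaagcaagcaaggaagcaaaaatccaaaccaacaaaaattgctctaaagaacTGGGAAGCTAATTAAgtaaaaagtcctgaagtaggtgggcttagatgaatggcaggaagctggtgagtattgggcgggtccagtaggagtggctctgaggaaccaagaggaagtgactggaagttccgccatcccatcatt
Zfp984: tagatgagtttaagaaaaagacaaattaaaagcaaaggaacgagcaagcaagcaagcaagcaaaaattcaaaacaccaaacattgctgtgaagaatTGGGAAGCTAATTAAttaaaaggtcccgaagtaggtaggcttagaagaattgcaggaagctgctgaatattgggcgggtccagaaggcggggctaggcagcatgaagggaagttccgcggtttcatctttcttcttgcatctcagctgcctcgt
Zfp936: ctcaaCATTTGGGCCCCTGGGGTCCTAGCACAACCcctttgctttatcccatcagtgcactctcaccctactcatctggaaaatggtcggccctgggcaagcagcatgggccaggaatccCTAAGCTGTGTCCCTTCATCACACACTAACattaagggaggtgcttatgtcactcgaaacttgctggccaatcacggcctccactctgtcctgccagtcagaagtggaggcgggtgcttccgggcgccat
Zfp977: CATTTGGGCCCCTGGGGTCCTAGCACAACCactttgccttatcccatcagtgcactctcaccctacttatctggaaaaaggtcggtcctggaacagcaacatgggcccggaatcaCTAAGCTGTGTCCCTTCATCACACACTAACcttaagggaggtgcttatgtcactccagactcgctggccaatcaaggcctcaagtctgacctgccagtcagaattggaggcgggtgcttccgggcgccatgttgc

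Over these 250 bases Zfp980 and Zfp979 were 90.8% identical, Zfp982 and Zfp979 88.8%, and Zfp987 and Zfp982 88.4%, while Zfp984 was between 74.8% and 78% identical to the other windows shown from chromosome 4. Zfp936 and Zfp977 were 90% identical to each other. Identity between the windows of the different clusters lay between 54% and 57.6%. The 15-base run was present, on either strand, in 12 of 21263 protein-coding promoter windows (0.0564%). All 12 belonged to genes within the span of the chromosome 4 cluster, 5 of them being the windows that defined the run. Besides members of the cluster these were Gm13212, Zfp600, Rex2 and Zfp534. The run was not particular to genes with peaks. Among genes with the run whose windows are not shown, Zfp981, Zfp988, Zfp985, Gm13212, Zfp600 and Zfp534 held no peak of either list. Rex2 held 1 Ctrl peak and no cKO peak.

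Peaks of the cKO list lay in the bodies of 11 of the 136 genes, or 8.09% (95% Wilson interval 4.58 to 13.9), where 5.47% of all protein-coding genes carried one. The 11 genes were Zfp987, Zfp992, Zfp993, Zfp978, Zfp991, Zfp982, Zfp979 and Zfp984 on chromosome 4, Zfp975 and Zfp936 on chromosome 7, and Zfp827 on chromosome 8. Peaks of the Ctrl list lay in 2 genes, Zfp980 and Zfp993, or 1.47% (0.404 to 5.20), against 0.26% of all protein-coding genes. Zfp993 alone carried peaks of both lists, 1 gene of 136, where 0.142% of all protein-coding genes did. These intervals cover counting error only and treat genes as independent, although neighbouring members share sequence and 3 pairs of bodies overlap.

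Repeated peaks were found in 3 genes (2.21%, 0.753 to 6.28), Zfp993 and Zfp978 with 5 cKO peaks each and Zfp982 with 2. Of all protein-coding genes 0.64% held at least 2, a share not matched for length. The 3 genes have bodies of 479, 267 and 73.0 kb and all lie in 1 cluster on chromosome 4. With 5 kb added to both ends of each body, 15 of the 136 genes met a cKO peak, against 7.12% of all protein-coding genes. Only 1 of the 136 genes, Zfp936, held a cKO peak whose −log10 q, the caller's significance after adjustment over the genome, was 2 or more, and 0.676% of all protein-coding genes held such a peak. At that threshold the share of these genes (0.735%, 0.130 to 4.05) was close to the background.

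Long genes meet more peaks, so the share was set against protein-coding genes outside the set in the same class of body length, with 20 classes of equal size. Such genes would give 6.87 genes with a cKO peak among 136, or 5.05%, and the observed 11 was 1.60 times that number (0.906 to 2.75). The interval included 1. It covers counting error of the observed share and treats genes as independent, although 8 of the 11 lie in 1 cluster on chromosome 4. No verdict on the whole set was therefore drawn from it. For the Ctrl list 0.348 genes would be found at these lengths, and the observed 2 were 5.74 times that (1.58 to 20.3), a value that rests on 2 genes. These ratios describe the lists, since the range of symbols was proposed with results of these data known.

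The genes with peaks were concentrated on chromosome 4, where they made up 8 of the 11. There, 14 of the genes form a cluster from Zfp990 to Zfp933 (chr4:145510759-147849126, 2.34 Mb), a cluster being a run of at least 3 members whose neighbouring bodies lie at most 500 kb apart. Of these 14, 8 held a cKO peak (57.1%, 32.6 to 78.6), where genes of the same lengths would give 1.33, a ratio of 6.01 (3.43 to 8.26). Both genes with a Ctrl peak were also in this cluster. Of the 122 members elsewhere, 3 held a cKO peak (2.46%, 0.840 to 6.98), against 5.54 from genes of their lengths, a ratio of 0.542 (0.185 to 1.54), and 0 held a Ctrl peak, which has an upper Wilson bound of 3.05%. The cluster was singled out with its peaks known, so its share is a description of the lists.

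**Figure D1:**
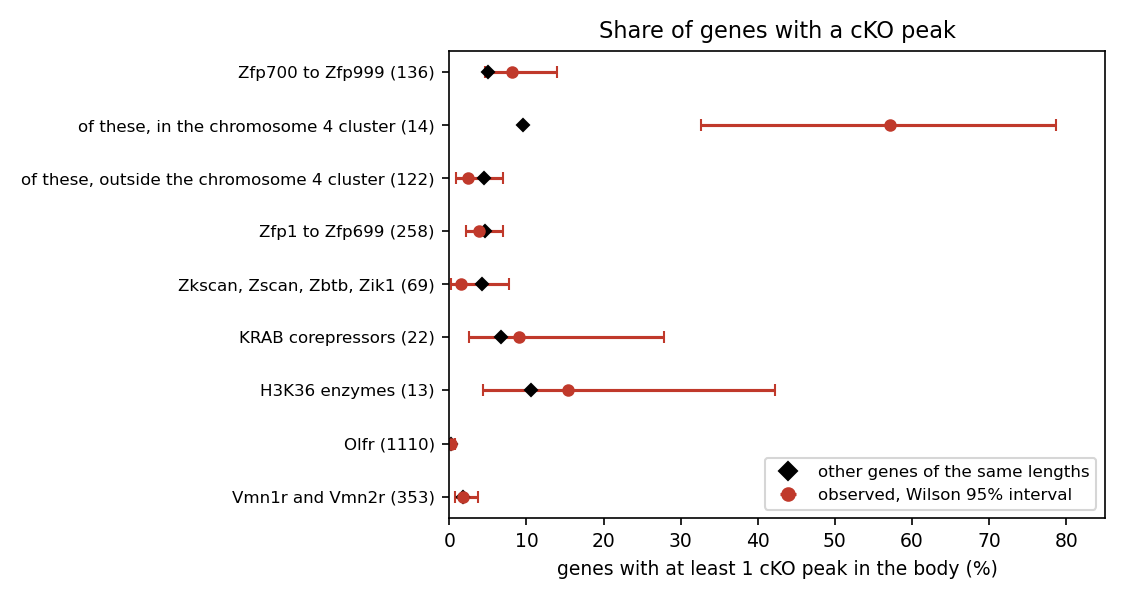
Share of genes with at least 1 cKO peak in the body (horizontal axis, %) for 9 gene groups, with the number of genes in brackets. Red points are observed shares with Wilson 95% intervals and black diamonds are shares in other protein-coding genes of the same lengths; the 14 genes of the chromosome 4 cluster stand at 57.1% against 9.51%.

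Along the chromosome 4 cluster the peaks were spread over most of its length rather than stacked at a single site. The span held 20 cKO peaks, or 8.55 per Mb, where chromosome 4 as a whole held 1.63 per Mb and the annotated genome 1.29. It held 6 Ctrl peaks, or 2.57 per Mb, against 0.0704 on the chromosome and 0.0855 in the genome. Of these 6 Ctrl peaks, 0 had a q-value under 0.05 and 4 had at least 3 other peaks within 100 kb. The number of cKO peaks per Ctrl peak was 3.33 in the span and 15.1 over the whole lists. When the chromosomes were divided into 1144 windows of the length of this span, 5 held at least 20 cKO peaks, the median being 2 and the highest 49, and 4 held at least 6 Ctrl peaks, with a median of 0. The density of cKO peaks in the span was 3.42 per Mb without peaks that have at least 3 others within 100 kb, and 0.428 per Mb with peaks of a q-value under 0.05 alone, which left 1 of the 8 members with a peak. The last value rests on 1 peak. In the whole cKO list 288 of 3491 peaks had at least 3 others within 100 kb, and 641 had a q-value under 0.05. The unfiltered genome value of 1.29 per Mb is therefore no reference for these 2 densities. Dense stretches of this kind were thus few in the genome, and the cluster was not the densest.

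Within the span, the bodies of the 14 members covered 1087 kb, 46.5% of the sequence, and took 16 of the 20 cKO peaks, or 14.7 per Mb of body. Of the remaining cKO peaks, 1 fell in another annotated gene, the pseudogene Vmn2r-ps15, and 3 in no gene. Of the 6 Ctrl peaks 2 lay in members, 1 in Rex2 alone and 3 in no gene. Rex2, Gm13212, Zfp600 and Zfp534 are the other 4 protein-coding genes there, and 0 of them held a cKO peak. The span also holds 47 pseudogenes, 4 with a cKO peak, 5 transcribed pseudogenes, 0 with one, and 7 lncRNA genes, 1 with one. The pseudogene Vmn2r-ps16, a remnant related to vomeronasal receptors, overlapped Zfp992, Zfp981 and Zfp993 and held 4 of the cKO peaks and 1 of the Ctrl peaks. Zfp981, which lies wholly inside it, held no peak.

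**Figure D2:**
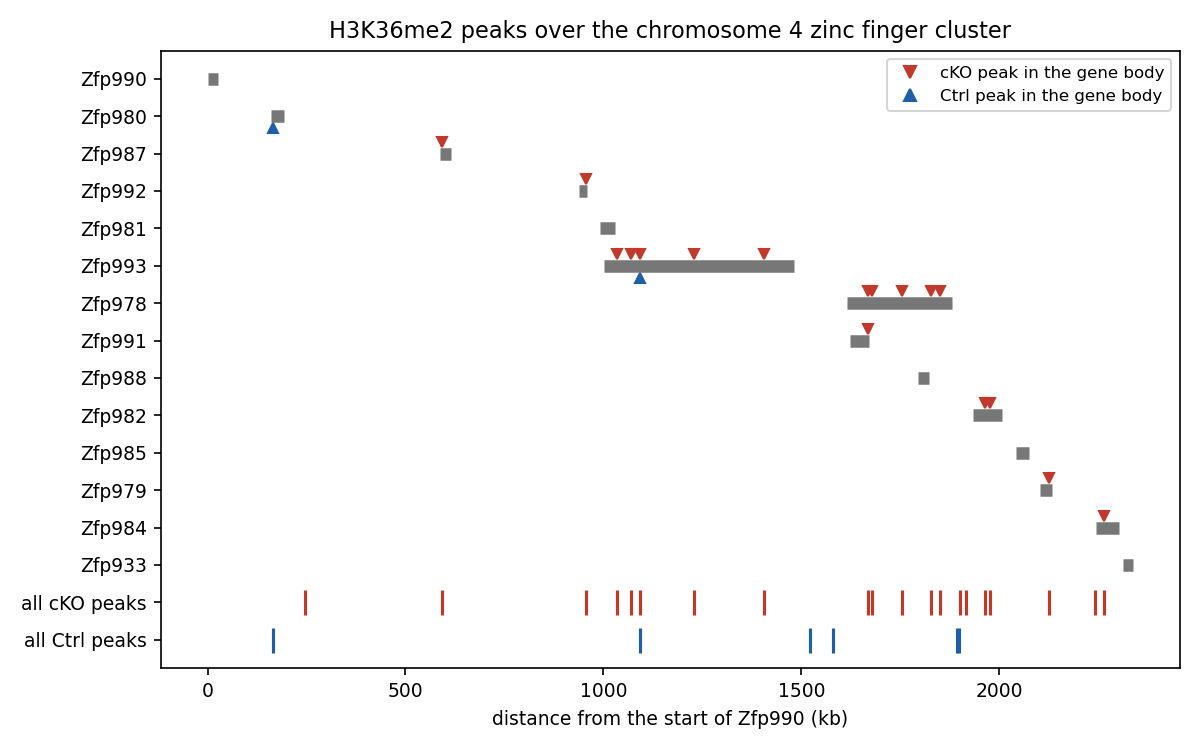
Gene bodies of the 14 members of the chromosome 4 cluster (grey bars, one row each) against distance from the start of Zfp990 (horizontal axis, kb). Red triangles are cKO peaks and blue triangles Ctrl peaks in a body, and the 2 lowest rows mark all 20 cKO and 6 Ctrl peaks of the span; Zfp993 and Zfp978 carry 5 cKO peaks each.

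Zfp993 has the longest body of the cluster, 479 kb, and its cKO peaks were scattered along it. They lay at chr4:146544457-146544717 (2.49-fold enrichment over the local background of the caller), chr4:146580298-146580543 (2.28-fold), chr4:146602376-146602685 (2.46-fold), chr4:146740043-146740508 (2.69-fold) and chr4:146914846-146915210 (2.79-fold). Their −log10 q values ran from 0 to 0.739, so none reached a q-value of 0.05. The only interval shared by both genotypes in a member was the third of these, which covered the whole Ctrl peak at chr4:146602412-146602682 (2.31-fold, −log10 q of 0). Zfp993 overlaps Zfp981 over 26.5 kb, and no peak lay in the shared stretch. Its promoter was not one of the near copies: the closest promoter among the members, that of Zfp791, was 62.3% identical.

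Zfp978 spans 267 kb and contains the whole bodies of Zfp991 (48.5 kb) and Zfp988 (28.5 kb). Its 5 cKO peaks had folds of 2.03 at chr4:147179213-147179574, 2.41 at chr4:147188537-147188931, 2.22 at chr4:147265533-147265713, 2.47 at chr4:147338182-147338500 and 2.67 at chr4:147361221-147361455. The first of them also lay in Zfp991 and is the only peak of that gene, so Zfp978 and Zfp991 do not count as independent observations of it. The fourth lay within 5 kb of Zfp988, whose own body held none. The highest −log10 q of the 5 was 0.791.

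Zfp982, of 73.0 kb, held cKO peaks at chr4:147475151-147475445 (2.77-fold) and chr4:147487225-147487530 (2.70-fold). Their centres lay upstream of the second listed start site, whose window is printed above, at -17.1 and -5.04 kb from it. Both lay within the annotated body, downstream of the first of the 3 listed start sites (chr4:147443114). Zfp979 held 1 cKO peak at chr4:147636484-147636764 (2.37-fold, −log10 q of 0.287), 5.88 kb downstream of its start. Zfp984 held the widest peak found in any member, 641 bp at chr4:147775607-147776247 (2.66-fold, −log10 q of 0.175), and a further cKO peak lay 2015 bp beyond its body at chr4:147751811-147751959 (2.92-fold). Zfp992 held a peak of 2.08-fold at chr4:146466921-146467302. In each of these genes the peaks had a q-value above 0.05.

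Zfp987 had the strongest peak of the cluster. Its cKO peak at chr4:146101721-146101867 was the narrowest in any member, 147 bp, with a 3.83-fold enrichment and a −log10 q of 1.58 (q-value 0.0262), and lay 4.48 kb downstream of the start site. It was the only peak of the cluster with a q-value under 0.05. Zfp980 was the only member with a peak of the Ctrl list alone, a Ctrl peak at chr4:145676798-145677073 (2.76-fold, −log10 q of 0.00108) 6.24 kb downstream of its start, with the nearest cKO peak 52.4 kb away. Zfp990, Zfp981, Zfp988, Zfp985 and Zfp933 held no peak of either list.

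Outside chromosome 4 the strongest peak lay in Zfp936, on chromosome 7 in a cluster of 7 members from Zfp977 to Zfp819 (chr7:42579397-43618279, 1.04 Mb). This cKO peak at chr7:43153590-43153771 had a 3.97-fold enrichment and a −log10 q of 2.54 (q-value 0.00285), the highest of any peak in a member for both measures. Its centre lay at -23.9 kb from the start site whose promoter is printed above, upstream of that start but within the annotated body. In the same cluster Zfp975 held a peak at chr7:42675756-42675911 (2.42-fold, −log10 q of 0.372). The other 5 members of the cluster held none, Zfp977 included, whose promoter is 90% identical to that of Zfp936.

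The chromosome 7 span held 8 cKO peaks, or 7.70 per Mb, 6 of them between members, and 1 Ctrl peak. That Ctrl peak, at chr7:43556321-43556475 (2.46-fold), overlapped a cKO peak at chr7:43556301-43556489 (2.74-fold) with a −log10 q of 4.39, the highest in the span of any of these clusters. Others of the peaks between members lay in Vmn2r62, a vomeronasal receptor gene (chr7:42775005-42775630, 2.90-fold), and Siglecf, a sialic acid-binding lectin gene (chr7:43355083-43355406, 2.92-fold).

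The remaining member with a peak stands alone: Zfp827, of 166 kb on chromosome 8, whose human counterpart is known for binding at telomeres, held a cKO peak at chr8:79140265-79140518 (2.64-fold, −log10 q of 0.165). Of the 39 members with no other member within 500 kb it was the only one with a cKO peak. The 6 members that form pairs held none.

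In all, 91 of the 136 genes lay in 16 clusters, and bodies with cKO peaks occurred in 2 of these, on chromosomes 4 and 7. Peaks between bodies added 5 clusters, so that 7 spans held a cKO peak and 9 held none. The 15 clusters other than that on chromosome 4, with 77 members over 6.90 Mb, together held 16 cKO peaks, or 2.32 per Mb, and 1 Ctrl peak. On chromosome 13 the span from Zfp808 to Zfp934 held 3 cKO peaks, between members, at chr13:62255237-62255577, chr13:62260921-62261101 and chr13:62265603-62265944, with folds of 2.70, 2.66 and 3.20. The other large clusters held few or none. The span of 13 members from Zfp948 to Zfp945 on chromosome 17 held 1, or 0.768 per Mb. The spans of 10 members from Zfp712 to Zfp738 on chromosome 13 (0.645 Mb) and of 8 from Zfp871 to Zfp955b on chromosome 17 (0.542 Mb) held 0. At the genome value of 1.29 per Mb few peaks would fall in spans this short, so these counts show no depletion.

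**Figure D3:**
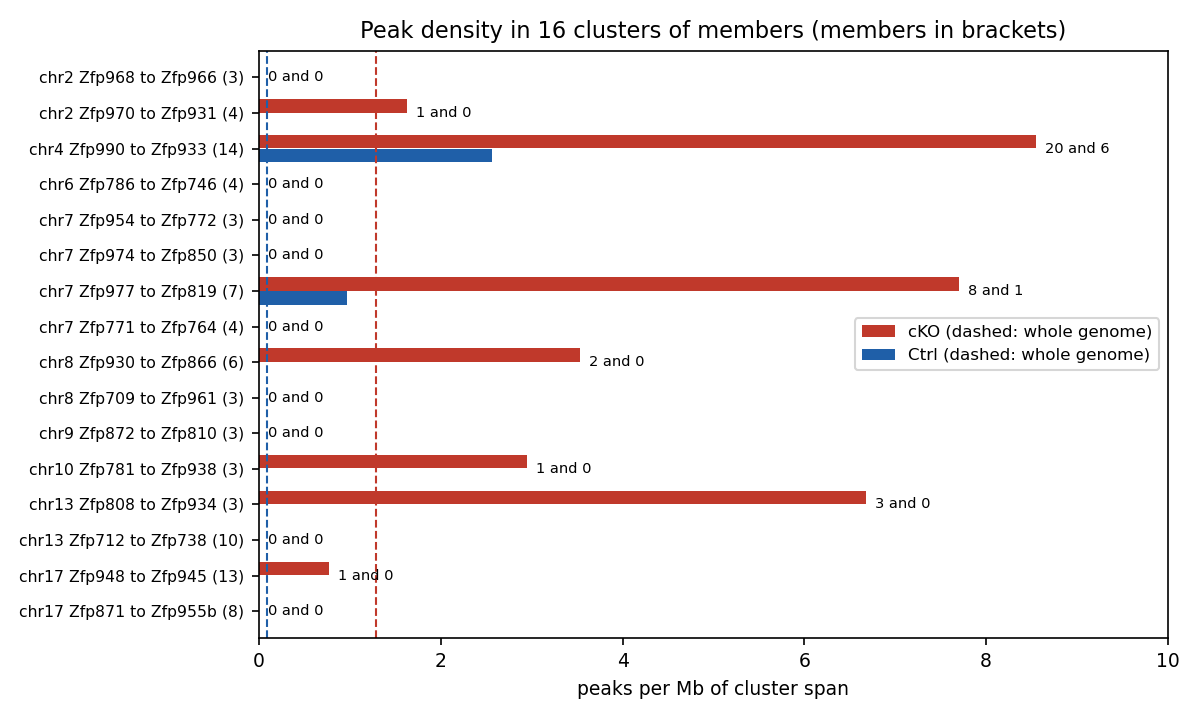
Peaks per Mb of span (horizontal axis) in the 16 clusters of members, red for the cKO list and blue for the Ctrl list, with the number of members in brackets and the 2 peak counts beside each bar. Dashed lines give the whole genome; the chromosome 4 cluster, with 20 and 6 peaks, has the highest density in both lists.

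Members with cKO peaks were longer than members without, with a median body of 58.3 kb (range 20.4 to 479, n = 11) against 19.4 kb (2.52 to 575, n = 125). The median was 20.5 kb over all members and 17.2 kb over all protein-coding genes. Length alone did not separate them. The longest member, Zfp804b at 575 kb on chromosome 5, held no peak, and its nearest cKO peak was 66.4 kb away. Zfp804a (210 kb), whose human counterpart is known from genetic studies of schizophrenia, Zfp800 (187 kb), Zfp704 (183 kb) and Zfp831 (112 kb) also held none, with nearest cKO peaks at 355, 68.5, 724 and 421 kb. In the class of longest genes, from 185 kb up, 2 of 5 members held a cKO peak and 29.1% of other genes did.

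**Figure D4:**
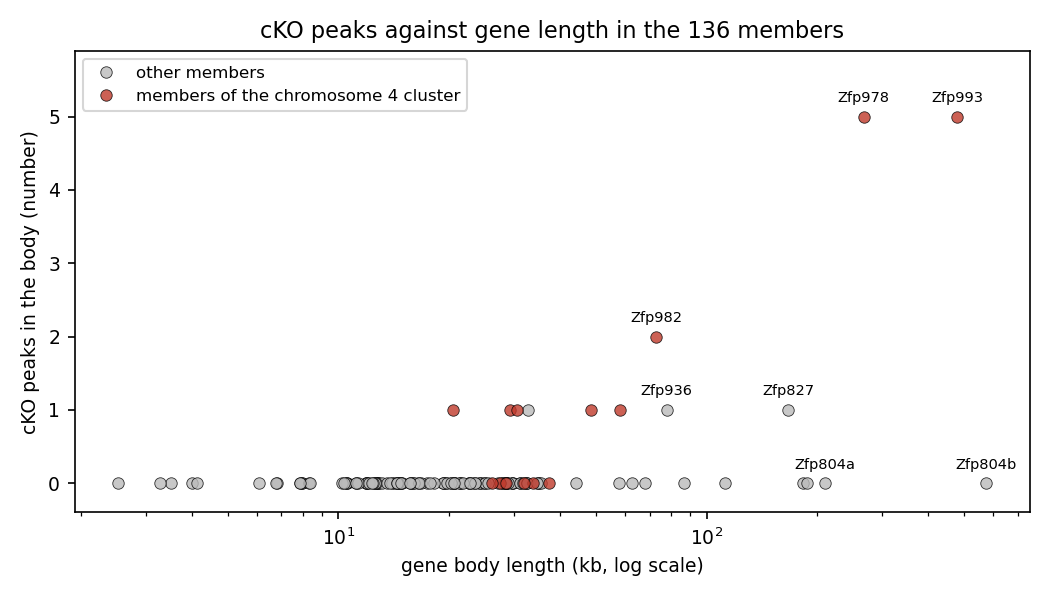
Number of cKO peaks in the body (vertical axis) against body length (horizontal axis, kb, log scale) for each of the 136 genes, red for the chromosome 4 cluster and grey for the rest. Zfp993 and Zfp978 reach 5 peaks, while Zfp804b, the longest at 575 kb, has none.

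The peaks in these genes had a higher median width and a lower median fold than the whole cKO list. Of the 19, 16 lay in the chromosome 4 cluster, with a median width of 308 bp and a median fold of 2.48. Those elsewhere, in Zfp975, Zfp936 and Zfp827, were 156, 182 and 254 bp wide, with folds of 2.42, 3.97 and 2.64. The medians thus describe mainly that cluster. The 19 distinct cKO peaks in bodies covered 5784 bp, with a median width of 295 bp (147 to 641) against 250 bp in the whole list, a median fold of 2.49 (2.03 to 3.97) against 2.82, and a median −log10 q of 0.165 (0 to 2.54) against 0.300. Of the 19, those of Zfp987 and Zfp936, 2 in all, had a q-value under 0.05, as did 641 of 3491 in the whole list. At least 3 other peaks within 100 kb were found around 10 of the 19, all 10 in the chromosome 4 cluster, against 288 of 3491. The 2 Ctrl peaks in bodies had folds of 2.76 and 2.31, where the median of the Ctrl list was 2.18. Folds and q-values are the authors' and describe each peak against its own local background.

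**Figure D5:**
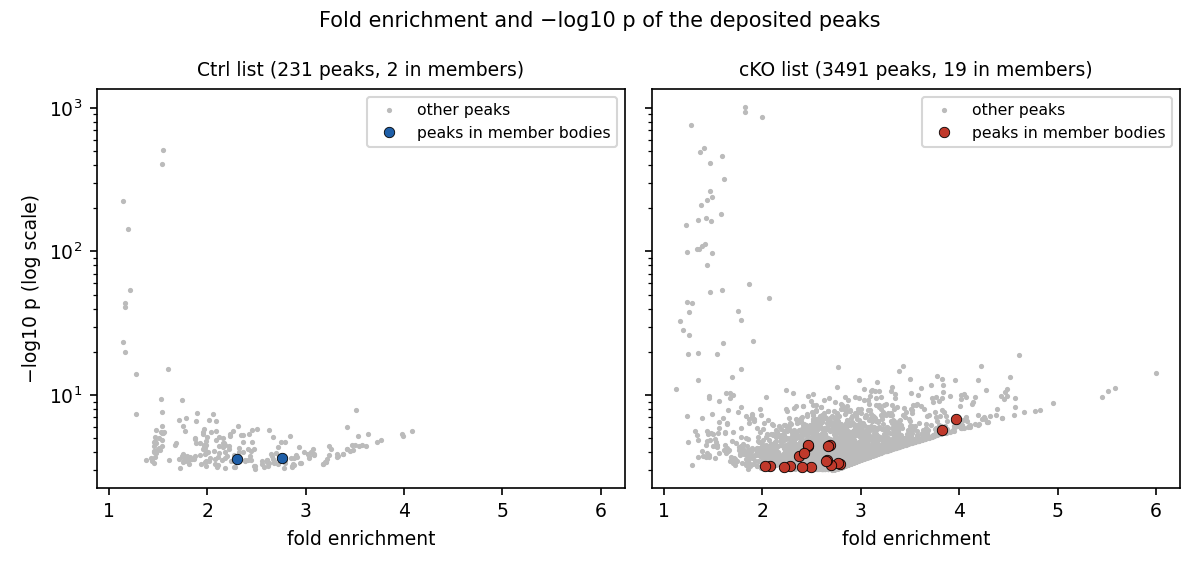
Fold enrichment (horizontal axis) against −log10 p (vertical axis, log scale) of every deposited peak, Ctrl on the left and cKO on the right, with peaks in the bodies of the 136 genes enlarged and coloured. Among the 19 cKO peaks those of Zfp936 (3.97-fold) and Zfp987 (3.83-fold) stand apart, and the others lie at or below 2.79-fold.

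No peak met a promoter window of these genes. RefSeq promoter windows, 250 bases before to 50 after a start, matched 119 of the 136 genes with 138 windows, and 0 of these met a peak of either list. Zfp978, Zfp991 and Zfp992, which held cKO peaks, are among the genes without a match. This is close to the background, since 11 of 21263 windows of protein-coding genes met a cKO peak (0.0517%) and 3 met a Ctrl peak (0.0141%). The nearest cKO peak to a window was 1.70 kb away, at Zfp937, and the nearest Ctrl peak 6.05 kb away, at Zfp980. Within 5 kb of a body but not over it, cKO peaks lay 1927 bp from Zfp937 (chr2:150215910-150216150, 2.94-fold), 2255 bp from Zfp771 (chr7:127240526-127240741, 2.53-fold, −log10 q of 1.87) and 2662 bp from Zfp949 (chr9:88573748-88573937, 2.93-fold, −log10 q of 2.10).

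Promoters within the cluster with most peaks ranged widely in identity. Between the 10 genes of the chromosome 4 cluster that have a promoter window, the median identity over 45 pairs was 77.7% (52.7 to 91.3), while windows of members in different clusters had a median of 58.7% over 6771 pairs. Of the 45 pairs 2 reached 90%, Zfp980 with Zfp979 and Zfp987 with Zfp982. Zfp993, with 5 of the 16 body peaks, was 52.7% to 61% identical to the others and Zfp933 57.3% to 60.3%, while Zfp990, Zfp992, Zfp978 and Zfp991 had no window. High identity was not found only there. The chromosome 2 cluster from Zfp968 to Zfp966 had a median of 91.3% over 3 pairs, with no peak in its span, and Zfp955a and Zfp955b on chromosome 17 had identical windows and no peak. These identities are of promoter windows, which no peak met, and the identity of the bodies was not measured. Reads from near-identical copies may not be told apart. The treatment of reads with several placements is not given in the sources used here, and their part in the peaks of the cluster was not tested.

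Promoters of the chromosome 4 cluster had fewer G and C bases than those of the other members. The 12 windows of its 10 genes had a median of 43.3% G and C (38 to 56) and 4.5 CpG sites, against 52.5% and 10 in 126 windows of the members elsewhere and 56.3% and 13 in all protein-coding windows. The letters CCAAT, searched on both strands like those that follow, were present in 9 of the 12 windows (75%), in 62.7% of the windows of the members elsewhere and in 38.2% of all. The letters GGGCGG, of the GC box, were in 8 of the 12 (66.7%), against 37.3% and 46.2%, and TATAAA in 0, against 5.56% and 12.6%. Windows of members from Zfp968 to Zfp931 on chromosome 2 had 47% to 49% G and C, 3 to 5 CpG sites and CCAAT. Few CpG sites and CCAAT were thus not particular to the chromosome 4 cluster, as these members held no peak in their bodies. These matches describe the windows only, and similar windows are not independent. Zfp982 alone gave 3 of the 12 windows.

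Other gene groups were read in the same way, by counts and by the ratio to genes of their lengths. Of 258 protein-coding genes from Zfp1 to Zfp699, 10 held a cKO peak (3.88%, 2.12 to 6.99), 0.840 times the number at their lengths (0.459 to 1.51), and 0 held a Ctrl peak. Those of highest fold were Zfp536 (3.60), Zfp521 (3.31), Zfp148 (3.01) and Zfp469 (2.96). Of 69 genes named Zkscan, Zscan, Zbtb or Zik1, only Zbtb17 held one (2.85-fold), against 2.89 genes at their lengths. Among 22 genes of the KRAB corepressor pathway, Smarcad1, a chromatin remodeller (2.92-fold), and Pphln1, of the HUSH silencing complex (2.84-fold), held cKO peaks, against 1.47 at their lengths. Trim28 and Setdb1 held none.

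Among 13 genes for enzymes that write or remove H3K36 methylation, Kdm2b (3.25-fold, −log10 q of 2.85) and Kdm8 (2.54-fold) held a cKO peak, against 1.37 at their lengths, and Nsd1 held none in either list. Olfactory receptor genes held cKO peaks in 3 of 1110 (Olfr1328, Olfr318 and Olfr646), against 2.93 at their lengths, and vomeronasal receptor genes in 6 of 353, with Vmn2r36 (3.22-fold) and Vmn2r115 (3.19-fold) highest, against 6.21. In each of these groups the interval of the ratio included 1.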

How the data were processed

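H3K36me2 was mapped by ChIP-seq in somatosensory cortex, with 3 antibody and 3 input libraries per genotype, grouped by the titles and the treatment and genotype labels. The processing notes of the submitters name Cutadapt, Bowtie2 2.4.4, MACS2 and mm10, without saying how they were used, and the peak-calling command and the handling of reads with several placements are not given in the sources used here. Since the 2 deposited lists name no libraries, pooling is known only from the sharing of a list by all libraries of a genotype, per the labels. The deposited fold enrichment is the ratio the caller gave each peak, and the deposited −log10 p and −log10 q are its significance before and after adjustment. The deposited score was not used. Peak names in the Ctrl list call it WT, whereas the labels give floxed genotypes.

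Peaks were set to 1-based positions and overlapped, by at least 1 bp, with RefSeq gene bodies on chromosomes 1 to 19, X and Y. Expected counts came from protein-coding genes outside each group in 20 length classes of equal size, weighted by the group's genes per class. For the chromosome 4 cluster and for the members elsewhere, all members were left out of the comparison genes. Ratios carry the Wilson 95% interval of the observed share. No p-value was computed, since each genotype had 1 list. Promoter windows were aligned globally with Biopython 1.88 (match 1, mismatch -1, gap opening -2, gap extension -0.5). Python 3.11.15, SciPy 1.17.1 and matplotlib 3.10.9 were used, and the overlap and length procedures were tested on simulated data. Members and lists were chosen with earlier results of these data known. Genes named are all members with a peak, the 5 longest without, those within 5 kb of a peak, the ends of clusters with peaks, and up to 4 genes of highest fold per other list. Named outside this rule, after their values were seen, are Trim28, Setdb1 and Nsd1, genes that share sequence runs, promoter identity or a body with those named, and genes under peaks between members. Of 23 corepressor symbols 22 were found. Protein features, exons, repeats and genome sequence were not analysed here. Alternatives were wider bodies, other overlap rules, stricter peaks, other length classes and cluster gaps, and lists without grouped peaks, the chromosome 4 cluster or long members.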

Additional observations from a re-analysis of the deposited data

How the results depend on the processing

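Of 43 alternative values, 30 were counted as near the main one and 13 as moved. Counts and densities were near when within a fixed factor of the main value. Ratios were near when inside the Wilson interval of the main ratio, 0.906 to 2.75 for cKO and 1.58 to 20.3 for Ctrl. These intervals are wide, so a ratio counted as near could still differ much from the main one. The 11 members with a cKO peak became 24 with bodies extended by 20 kb, 3 without the chromosome 4 cluster, 2 with peaks of at least the joint median fold (2.81), 2 with a q-value under 0.05 and 1 with a −log10 q of at least 2. They stayed between 8 and 15 under the other settings, 8 being the count without peaks that have at least 3 others within 100 kb (grouped peaks). The 2 members with a Ctrl peak became 0 at a −log10 q of at least 2, 0 at the median fold and 1 without grouped peaks. The cKO ratio of 1.60 ranged from 1.15 to 1.62 in all settings but 1, and was 0.542 without the chromosome 4 cluster. The 19 cKO peaks in bodies became 1 at a −log10 q of at least 2. In the chromosome 4 cluster, 8.55 cKO peaks per Mb became 3.42 without grouped peaks and 0.428 with a q-value under 0.05, and the 8 members with a cKO peak became 1 with a q-value under 0.05. Settings with a q-value under 0.05, without members over 200 kb, with each peak counted for 1 member, and those of the chromosome 4 cluster were chosen after seeing the data. No paired analysis was possible because 1 list stands for all libraries of a genotype, without values per library, and for the same reason no replicate could be left out. Depth per library is unknown and limits every count.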

Other observations

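Beyond gene bodies, 24 of the 136 genes (17.6%) had a cKO peak within 20 kb, against 12.8% of all protein-coding genes, and 53 (39.0%) within 100 kb, against 33.0%. A Ctrl peak lay within 100 kb of 10 of them (7.35%), against 1.84%. These counts include the 14 neighbours on chromosome 4, whose distances are not independent. All 14 had a cKO peak within 100 kb, the farthest being Zfp990 at 85.3 kb. The shares were not matched for length and were not computed without that cluster. They therefore show no excess for the members elsewhere.

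Near-identical promoters also joined members of different places on chromosome 2. The windows of Zfp966 and Zfp967 were identical, that of Zfp968 was 99.7% identical to that of Zfp973, and that of Zfp970 was 97.7% identical to that of Zfp966. None of these 5 genes held a peak of either list in its body, and the span from Zfp970 to Zfp931 held 1 cKO peak, between members (chr2:177535787-177536181, 2.91-fold).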
